A study of Mus musculus with 7 samples.

Results

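The troponin and tropomyosin genes of mouse quadriceps were followed through 19 array probes for 10 genes: the calcium-binding troponin C genes Tnnc1 and Tnnc2, the inhibitory troponin I genes Tnni1 and Tnni2, the tropomyosin-binding troponin T genes Tnnt1, Tnnt2 and Tnnt3, and the tropomyosin genes Tpm1, Tpm2 and Tpm3. Members were chosen by gene name: every non-control probe that the scanner files, or the current RefSeq symbol of the probe's transcript, assign to these genes was taken, whatever its value. They are 19 of 39429 distinct probes. Tnnc2 and Tnni2 had 1 probe each, as did Tnnc1, Tnni1 and Tnnt2, while Tnnt1, Tnnt3 and Tpm2 had 2, Tpm3 had 3 and Tpm1 had 5.

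Tropomyosin is a coiled coil that lies along the actin filament and covers the sites where myosin binds. Troponin T anchors the troponin complex to tropomyosin, troponin I holds the filament in the blocked state, and troponin C releases this block when calcium rises. Fast and slow muscle fibers build the complex from different genes (Tnnc2, Tnni2 and Tnnt3 in fast fibers, Tnnc1, Tnni1 and Tnnt1 in slow fibers, with Tnnc1 shared with the heart and Tnnt2 being the cardiac troponin T), and the tropomyosin genes add isoforms through alternative promoters and exons, some of them for striated muscle and others for smooth muscle or the cytoskeleton.

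RNA came from the quadriceps of mice of the C57BL/6 strain aged 3 months, with 4 WT mice and 3 AR113Q knock-in mice, a model of spinal and bulbar muscular atrophy. The labels name the control group WT, whereas the text of the study describes knock-in controls; the labels were followed here. Each mouse was measured on 1 single-color array, nothing was pooled, and neither the sex of these mice nor the region of the quadriceps is given by the labels. The arrays lay on 5 slides, of which 1 held arrays of both genotypes (WT 2 and AR113Q 1) and another held WT 3 and WT 4; all were scanned on 1 date.

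Between 18785 and 22013 probes per array were well above background and no spot was saturated. Correlation between arrays over the kept probes lay between 0.909 and 0.987. Of the skeletal muscle markers, all 7 were detected and their summed level ran from 19.4 to 19.7 in WT and from 18.7 to 19.6 in AR113Q (log2 of the summed normalized intensity). Of the cardiac markers, the heart peptides Nppa and Nppb stayed below the detection filter. Myh6 was well above background on every array, from 5.10 on WT 4 to 9.14 on AR113Q 3. Tnni3 was well above background on 1 WT and 2 AR113Q arrays and so met the filter.

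Values are log2 intensities after quantile normalization, which gives every array the same distribution, and a probe was kept when 3 or more of the 7 arrays had it well above background. All 19 probes were kept, 15 of them well above background on every array. A probe passed the test at an adjusted p of at most 0.05 (limma over all 20991 kept probes) and was a differentially expressed probe (DEG) when its log2 fold change was also at least 1 in size. The groups differed widely on this array, so the background is high: 43.8% of all kept probes passed, 22.2% higher and 21.6% lower in AR113Q, and 24.8% were DEGs. Against this, 4 of the 19 member probes passed, all lower in AR113Q and all from Tpm1 or Tpm2, and 3 were DEGs. One of the DEGs, Tpm1 A_55_P2078680, met the filter on dim probes through the WT arrays, since only 1 AR113Q array had it well above background, and without it, on probes well above background on every array, 2 members were DEGs. No troponin probe passed in either direction, whereas 9 member probes, 3 of them fast troponin probes, passed as lower when arrays were scaled to their 75th percentile instead. The median log2 fold change of the members was 0.00070, beside 0.015 over all kept probes. The genotypes did not overlap in 3 member probes, all of Tpm1, beside 49.6% of all kept probes.

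**Figure D1:**
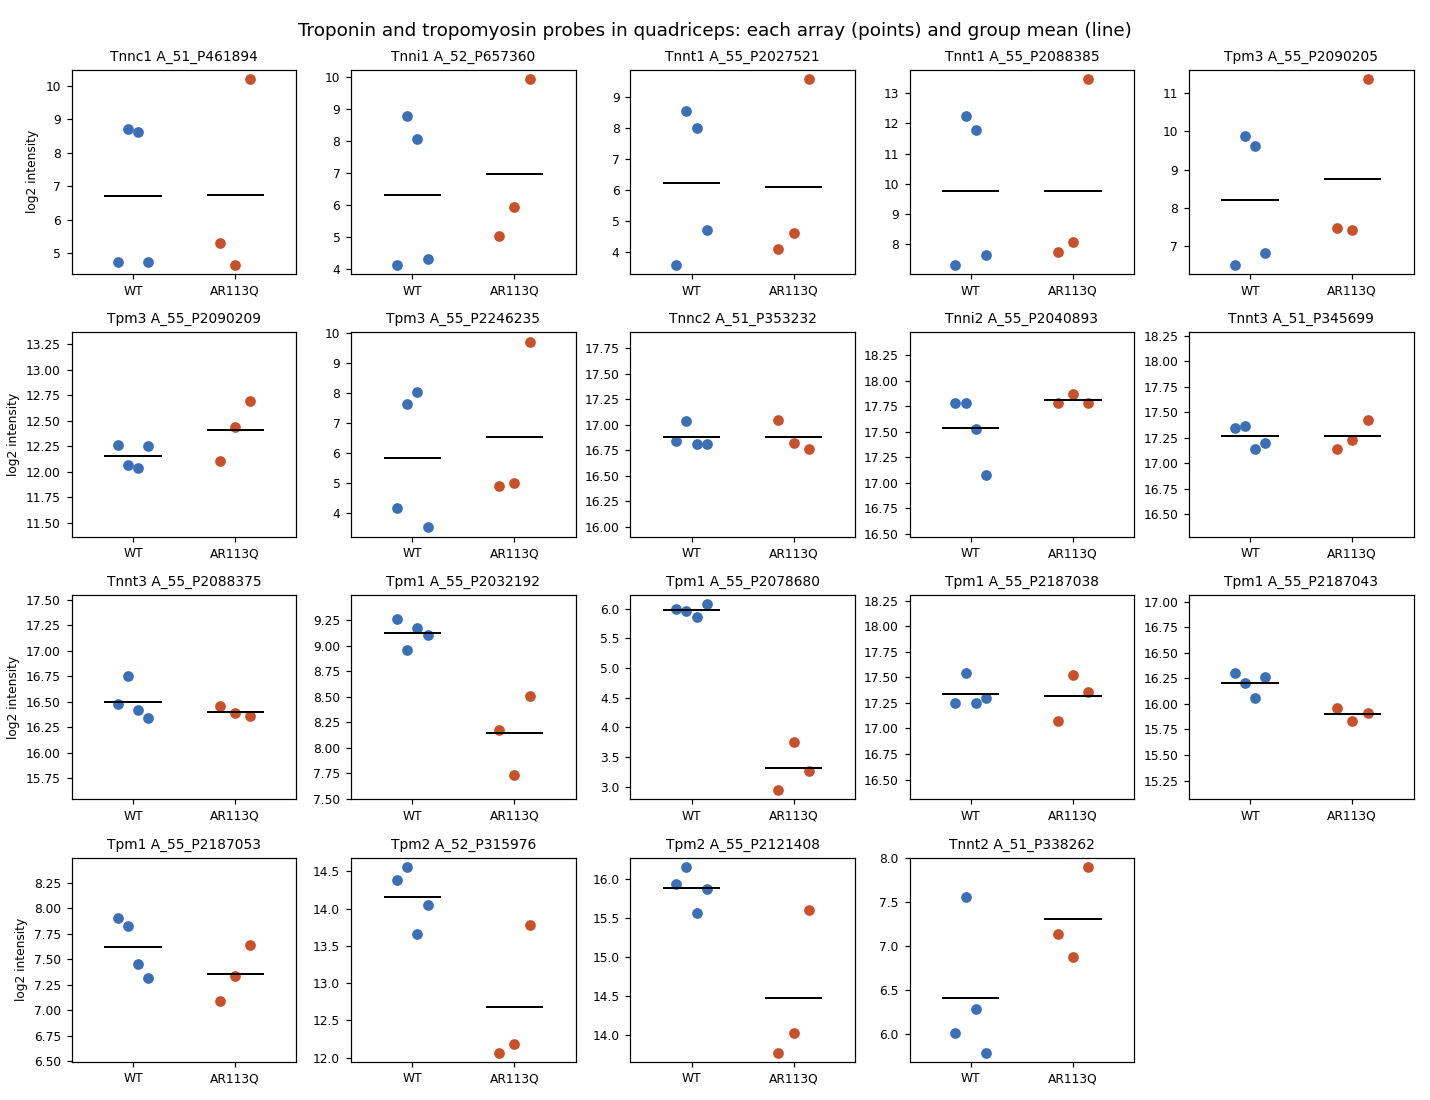
Normalized log2 intensity (y axis, at least 2 log2 units tall in every panel) of each of the 19 probes on the 4 WT (blue) and 3 AR113Q (orange) arrays, with the mean of each group as a line. The slow-fiber probes in the upper row and the last Tpm3 panel spread over several log2 units inside both genotypes, while the genotypes separate in Tpm1 A_55_P2078680, A_55_P2032192 and A_55_P2187043.

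The slow-fiber members were among the most variable probes on the arrays. Transcripts of Tnnc1, Tnni1, Tnnt1 and the muscle form of Tpm3 were high on the same 3 arrays, WT 2, WT 3 and AR113Q 3, and low on the other 4, so that both genotypes held high and low mice. No estimate between genotypes was stable for these probes: without AR113Q 3 all 6 were below 0, from -1.86 to -0.75, and without AR113Q 1 all 6 were above 0, from 0.73 to 1.61. These 6 probes are shown here because the finding rests on them. The probes of Tnnc1, Tnni1 and Tpm3 hold an open reading frame and are given whole, whereas for the Tnnt1 probes, which lie at the end of the transcript, only 30 bases around the polyadenylation hexamer (capitals) are given:
Tnnc1 A_51_P461894: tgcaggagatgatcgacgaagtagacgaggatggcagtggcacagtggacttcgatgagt
Tnni1 A_52_P657360: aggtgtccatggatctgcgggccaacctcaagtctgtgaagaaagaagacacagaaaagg
Tnnt1 A_55_P2088385: tctgtaactcaaAATAAAgtgcccccaggc
Tnnt1 A_55_P2027521: ccatcaactgtcATTAAAgagagttcaagt
Tpm3 A_55_P2090205: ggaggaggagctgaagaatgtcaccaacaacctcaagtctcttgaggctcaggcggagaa
Tpm3 A_55_P2246235: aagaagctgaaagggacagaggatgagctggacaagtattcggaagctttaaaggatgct

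On the mm9 build the files place the Tnni1 probe at chr1:137705328-137705387, the Tnnt1 probes at chr7:4456265-4456324 and chr7:4456172-4456231, and the Tpm3 probes at chr3:89892985-89893044 and chr3:89877669-89877728; the Tnnc1 probe has no position there. Which exon each probe lies in was not analysed here. Both Tpm3 probes are assigned to Tpm3.12, the slow skeletal muscle transcript. The longest run of identical bases between probes of different member genes was 13 bases of 60.

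For troponin C, the Tnnc1 probe A_51_P461894 read 4.74, 8.71, 8.62 and 4.73 on WT 1 to WT 4 and 5.31, 4.66 and 10.20 on AR113Q 1 to AR113Q 3. The upper 3 arrays stood 3.31 log2 units or more above the others, and both genotypes had arrays in the high and in the low set, AR113Q 3 above and AR113Q 2 just below every WT array. The AR113Q mean differed from the WT mean by 0.024 ± 1.55 (SE) on the log2 scale, with a 95% interval from -3.54 to 3.58 (adjusted p = 0.992). An interval this wide leaves differences of several log2 units in either direction undetectable with 4 and 3 mice.

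Troponin I of slow fibers followed the same arrays. Tnni1 (A_52_P657360) read 4.14, 8.78, 8.08 and 4.32 in WT and 5.03, 5.93 and 9.94 in AR113Q, and 2 of the 4 WT arrays and all AR113Q arrays had it well above background. Its difference was 0.64 ± 1.50 (95% interval -2.80 to 4.08, adjusted p = 0.755). The step below its 3 highest arrays was 2.15 log2 units.

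Tnnt1, the tropomyosin-binding subunit of slow fibers, gave the widest ranges within each genotype among the members. Before normalization the intensity of A_55_P2088385 was 114, 4572, 3063 and 179 in WT and 247, 362 and 13762 in AR113Q. After normalization it read 7.33, 12.24, 11.78 and 7.64 against 7.76, 8.08 and 13.46 on the log2 scale. Range within WT was thus 4.91 log2 units and within AR113Q 5.71, while the genotype means differed by only 0.021 ± 1.71 (95% interval -3.90 to 3.94, adjusted p = 0.994). The second probe, A_55_P2027521, lay 3′ of the first without overlap. It was well above background on 3 of the 4 WT and 2 of the 3 AR113Q arrays. It read 3.59, 8.54, 8.01 and 4.72 in WT and 4.09, 4.61 and 9.59 in AR113Q. The same 3 arrays led, and the difference was -0.12 ± 1.60 (adjusted p = 0.959).

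The Tpm3.12 probes shared this order of arrays. A_55_P2090205 read 6.53, 9.89, 9.61 and 6.82 in WT and 7.48, 7.44 and 11.37 in AR113Q, with a difference of 0.55 ± 1.19 (95% interval -2.17 to 3.28, adjusted p = 0.732). A_55_P2246235 was well above background on 2 of the 4 WT arrays and on all AR113Q arrays. It read 4.18, 7.65, 8.04 and 3.54 in WT and 4.91, 5.02 and 9.72 in AR113Q, with a difference of 0.70 ± 1.49 (95% interval -2.73 to 4.12, adjusted p = 0.731). By contrast, the remaining Tpm3 probe, A_55_P2090209, which the files assign to the cytoskeletal transcript Tpm3.1 (chr3:89904428-89904487), was nearly flat at 12.26, 12.07, 12.04 and 12.25 in WT and 12.10, 12.44 and 12.69 in AR113Q. It stood highest on AR113Q 3 as well, but its whole range was 0.65 log2 units and its difference 0.26 ± 0.18 (95% interval -0.15 to 0.67, adjusted p = 0.273).

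**Figure D2:**
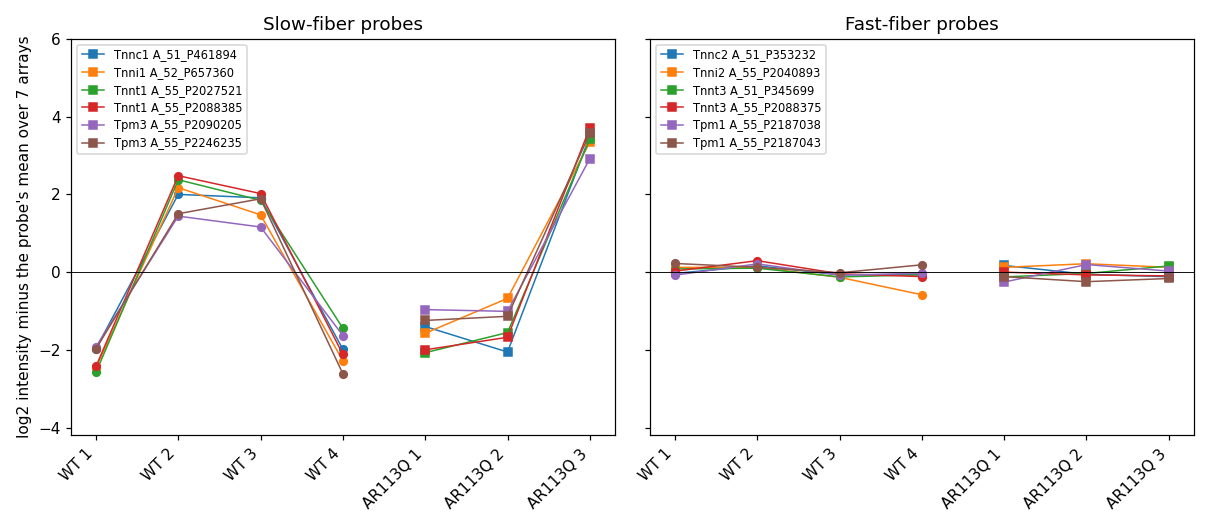
Log2 intensity of each probe minus that probe's mean over the 7 arrays (y axis), by array (x axis), with circles for WT and squares for AR113Q. The 6 slow-fiber probes rise together on WT 2, WT 3 and AR113Q 3, whereas the 6 fast-fiber probes stay near 0 on every array, with WT 4 lowest for Tnni2.

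Of the 19 member probes 6, of Tnnc1, Tnni1, Tnnt1 and Tpm3, had WT 2, WT 3 and AR113Q 3 as their 3 highest arrays, beside 2.28% of all kept probes (479 of 20991). These 3 arrays were picked from the values of the same probes, so the count describes the pattern and does not test it. WT 3 and WT 4 shared a slide and fell on opposite sides of this step, and so did WT 2 and AR113Q 1 on theirs. A step of at least 2 log2 units below these 3 arrays, a limit set after the values were seen, was found in 15 kept probes, of which 6 were the members above; the others were probes of Myh7, Myl2, Myl3, Myh2, Bdh1 and Spp1 and a probe with no gene name in the tables used. Within-genotype SD of the slow-fiber probes ran from 1.99 to 2.87 log2 units against a median of 0.287 over all kept probes. Only probes of the slow myosin genes Myh7, Myl2 and Myl3, together with the unnamed probe, exceeded the Tnnt1 probe in this SD. Tnni1, Tnnt1 A_55_P2027521 and Tpm3 A_55_P2246235 were not well above background on every array, which limits their low values and so their SD. Of the 11 fast-fiber genes tested 1, the myosin gene Myh1, also had WT 2, WT 3 and AR113Q 3 highest, beside 2.40% of all genes. In bulk RNA a smaller number of slow fibers and less of these transcripts per fiber cannot be told apart.

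**Figure D3:**
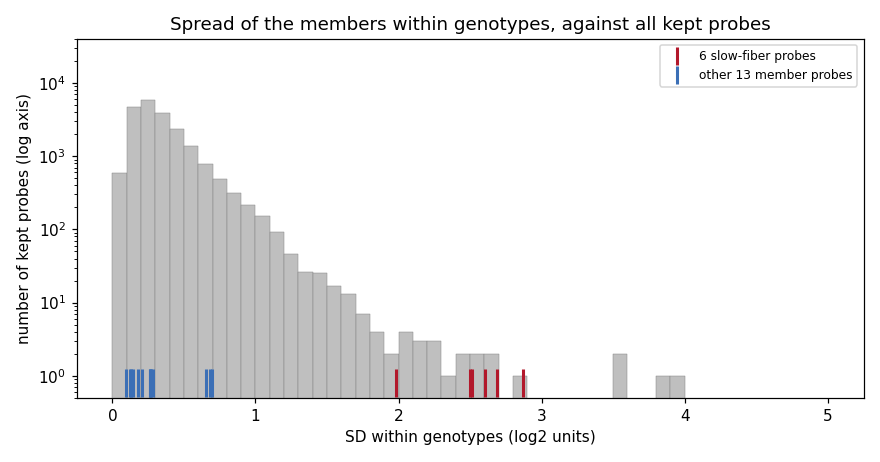
Number of kept probes (y axis, log scale) by SD within genotypes (x axis, log2 units), with a red tick for each of the 6 slow-fiber probes and a blue tick for each of the other 13 member probes. The red ticks lie between 1.99 and 2.87, in the far tail of all 20991 probes, and the blue ticks lie below 0.7.

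Of 10 other slow-fiber genes tested, from a list of 11 chosen with earlier results of these data known, 4 had the same 3 arrays highest. In this list 2 passed higher in AR113Q and 0 lower, with a median log2 fold change of 0.68 (0.23 with normexp, 0.24 on mean spot signals and 0.28 in the authors' values), beside 43.5% of all genes by their brightest probe (21.0% higher and 22.5% lower). The slow myosin light chain Myl2 read 9.09, 11.81, 12.45 and 6.35 in WT and 6.46, 5.65 and 13.82 in AR113Q, a difference of -1.28 ± 2.13 that did not pass, and Myl3 differed by -0.81 ± 2.09. Myh7, the slow myosin heavy chain, read 4.95, 12.56, 11.89 and 6.66 in WT and 6.66, 6.22 and 13.59 in AR113Q, and with the Z-disc gene Myoz2 it completed the 4 of 10 tested genes whose upper 3 arrays were these, beside 2.40% of all genes; Myh7 and Myoz2 are named after their values were seen. Unlike these, the stretch-responsive Ankrd2 was 3.44 ± 0.88 higher in AR113Q (adjusted p = 0.014) and the slow calcium pump Atp2a2, also named after its values were seen, was 1.42 ± 0.42 higher (adjusted p = 0.025), both without overlap of the genotypes. Csrp3, a Z-disc protein enriched in slow fibers, was 2.18 ± 1.13 higher in the mean and did not pass.

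Promoters of the slow-fiber members are shown because their transcripts moved together across the arrays. RefSeq (GRCm38.p6) gave 11 windows for 8 of the 10 members, each the 250 bases before a listed start. For Tnni1 and Tpm3 the more upstream of their listed starts is given. Capitals mark CANNTG, the E-box bound by myogenic helix-loop-helix factors, which reads the same on both strands:
Tnnc1, chr14:31208062-31208311 (+ strand): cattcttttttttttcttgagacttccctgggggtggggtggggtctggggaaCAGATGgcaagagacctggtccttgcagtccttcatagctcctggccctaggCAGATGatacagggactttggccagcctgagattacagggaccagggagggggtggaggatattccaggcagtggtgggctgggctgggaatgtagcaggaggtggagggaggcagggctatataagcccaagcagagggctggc
Tnni1, chr1:135799171-135799420 (+ strand): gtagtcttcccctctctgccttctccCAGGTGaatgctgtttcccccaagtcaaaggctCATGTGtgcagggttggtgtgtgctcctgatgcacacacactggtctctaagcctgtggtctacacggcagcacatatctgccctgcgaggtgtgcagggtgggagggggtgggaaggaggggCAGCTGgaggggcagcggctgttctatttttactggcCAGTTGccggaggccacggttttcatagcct
Tnnt1, chr7:4515976-4516225 (- strand): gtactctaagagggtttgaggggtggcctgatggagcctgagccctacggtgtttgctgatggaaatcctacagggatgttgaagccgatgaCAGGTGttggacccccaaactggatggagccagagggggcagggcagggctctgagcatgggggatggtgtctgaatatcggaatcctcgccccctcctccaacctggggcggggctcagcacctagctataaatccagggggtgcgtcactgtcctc
Tpm3, chr3:90072401-90072650 (+ strand): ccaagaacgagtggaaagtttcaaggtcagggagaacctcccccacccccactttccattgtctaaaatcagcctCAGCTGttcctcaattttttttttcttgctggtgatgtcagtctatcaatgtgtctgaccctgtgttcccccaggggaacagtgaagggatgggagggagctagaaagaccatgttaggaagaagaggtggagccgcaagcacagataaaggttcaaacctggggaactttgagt

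The windows of Tnnc1, Tnni1, Tnnt1 and Tpm3 held 2, 4, 1 and 1 E-boxes, as letters only. An E-box was present in 66.2% of all 32851 windows of this length. CATTCC, the MCAT element read by TEAD factors, was searched on both strands. It was found in the Tnnc1 window, in a Tnnt2 window and in the Tpm1 window, and in 12.6% of all windows. TATAAA, also searched on both strands, was found in the Tnnt1 window and in 12.4% of all. The MEF2 box was in none of the 11 member windows and in 2.92% of all.

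The fast-fiber troponins were near the top of the intensity range and close to constant. Tnnc2, Tnni2 and both Tnnt3 probes ranked between 2 and 115 among the spots of each array counted from the brightest. Probes for Tnnc2 and Tnni2 lie around the polyadenylation hexamer (capitals, 30 bases each), and those of Tnnt3 hold an open reading frame and share a run of 27 bases, so they are not independent:
Tnnc2 A_51_P353232: gtgactggaaggAATAAAagttgacaatgt
Tnni2 A_55_P2040893: tggcctcgctccAATAAAggattcacatct
Tnnt3 A_51_P345699: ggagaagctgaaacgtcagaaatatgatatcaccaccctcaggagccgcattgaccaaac
Tnnt3 A_55_P2088375: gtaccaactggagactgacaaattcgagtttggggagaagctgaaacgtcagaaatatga

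On mm9 the Tnnc2 probe lies at chr2:164602661-164602720, the Tnni2 probe at chr7:149630251-149630310 and Tnnt3 A_55_P2088375 at chr7:149698467-149698526, while the other Tnnt3 probe has no position there. Tnnc2, troponin C of fast fibers, read 16.85, 17.04, 16.81 and 16.82 in WT and 17.05, 16.82 and 16.76 in AR113Q. Its difference was 0.00070 ± 0.15 (95% interval -0.35 to 0.35, adjusted p = 0.998). Thus a difference above 0.35 log2 units in either direction lay outside the interval under this normalization.

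Tnni2, troponin I of fast fibers, read 17.78, 17.78, 17.52 and 17.07 in WT and 17.78, 17.87 and 17.78 in AR113Q. WT 4 was the lowest array, and 4 arrays agreed to 2 decimals because quantile normalization gives spots of equal rank an equal value. The difference was 0.27 ± 0.20 (95% interval -0.19 to 0.74, adjusted p = 0.308). Tnnt3, troponin T of fast fibers, read 17.35, 17.37, 17.14 and 17.20 in WT and 17.14, 17.23 and 17.42 in AR113Q by A_51_P345699, and its difference was 0.0025 ± 0.15 (95% interval -0.34 to 0.35). Its other probe read 16.48, 16.75, 16.42 and 16.34 in WT and 16.46, 16.39 and 16.36 in AR113Q, a difference of -0.097 ± 0.16 (95% interval -0.45 to 0.26). All these groups overlapped.

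Scaling matters for these bright probes. When each array was scaled to its 75th percentile instead, the 200 brightest kept probes had a median log2 fold change of -0.38, beside 0.0028 after quantile normalization, whereas the median over all kept probes was -0.053. Under that scaling Tnnc2 was -0.51 (adjusted p = 0.023), Tnnt3 -0.61 (adjusted p = 0.044) and -0.50 (adjusted p = 0.035) and Tnni2 -0.39 (adjusted p = 0.216). Hence the signs of Tnnc2, Tnni2 and Tnnt3 A_51_P345699 turned, and Tnnc2 and both Tnnt3 probes passed as lower in AR113Q, which they did under no other setting tried (highest adjusted p 0.998 for Tnnc2, 0.994 and 0.960 for Tnnt3). The direction of the fast troponins therefore depends on the scaling, and no direction is given for them here.

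Slow and fast paralogs of a subunit were also compared within each array, which removes any linear scaling of that array but not the effect of quantile normalization. Log2 of Tnnt1 minus log2 of Tnnt3 was -10.02, -5.13, -5.37 and -9.56 in WT and -9.38, -9.15 and -3.96 in AR113Q. These differences show how far the 3 high arrays stood from the rest and carry no order between the genes, since probes differ in brightness. The genotype means of this difference were 0.019 apart (exact two-sided permutation test, p = 1), those of Tnnc1 minus Tnnc2 0.023 apart (p = 1, exact), and those of Tnni1 minus Tnni2 0.37 apart (p = 0.857, exact). For Tpm3 minus Tpm1, which by the brightest probes compares Tpm3.1 with Tpm1.1, AR113Q was 0.28 higher (p = 0.2, exact) but 0.997 higher under 75th percentile scaling (p = 0.0286, exact), and with the Tpm3.12 probe, a choice added after seeing the data, 0.57 higher (p = 0.743, exact). Adjusted over the 4 pairs the values were 0.8 for Tpm3 minus Tpm1 and 1 for the others. With 35 arrangements of 7 arrays the smallest p is 0.0286.

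**Figure D4:**
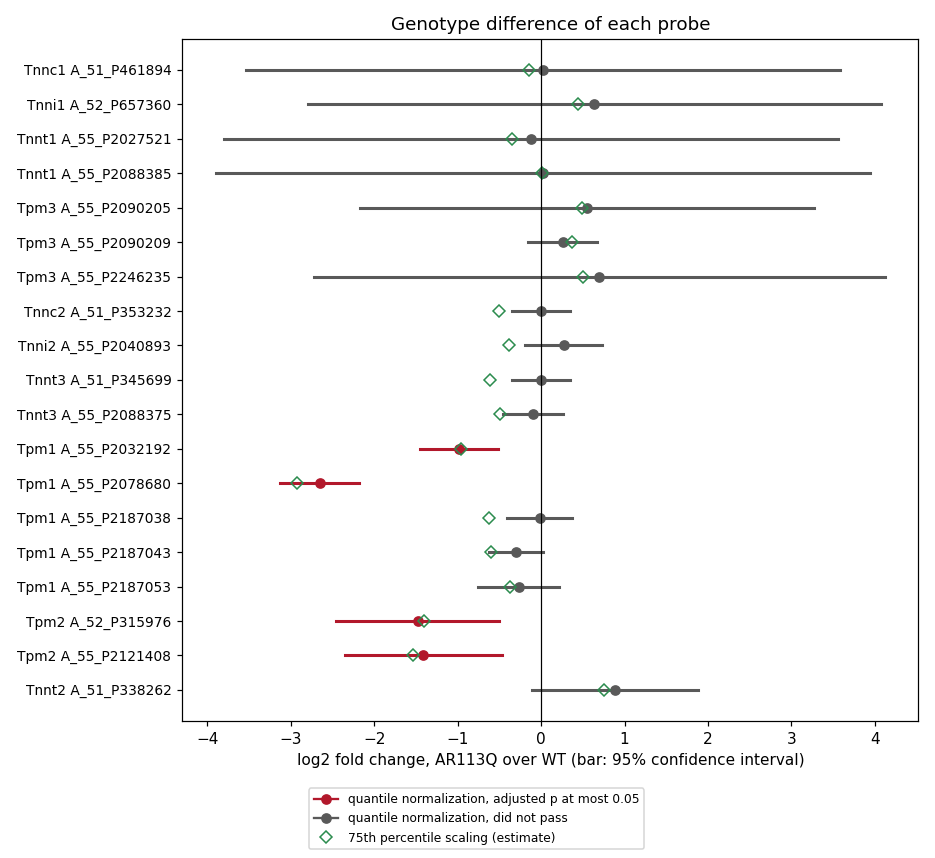
Log2 fold change of AR113Q over WT (x axis) for each probe with its 95% confidence interval, in red where the adjusted p was at most 0.05, and the estimate under 75th percentile scaling as a green diamond. Slow-fiber probes have intervals of several log2 units around 0, the whole intervals of the 2 Tpm2 probes and of 2 of the Tpm1 probes lie below 0, and the diamonds of the fast-fiber probes lie to the left of their points.

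Tpm1, the alpha tropomyosin gene, was read by probes for different transcripts; differences between the transcripts were not tested. The probes of the striated muscle transcript Tpm1.1 were near the top of the range and did not pass, while of the probes for other transcripts A_55_P2032192 passed as lower in AR113Q, as did A_55_P2078680, which only 1 AR113Q array had well above background. The sequences are shown because the probes read different transcripts; capitals mark the stop codon of A_55_P2032192 and the hexamer in the 30 bases given of A_55_P2187043 and A_55_P2187053:
Tpm1 A_55_P2078680: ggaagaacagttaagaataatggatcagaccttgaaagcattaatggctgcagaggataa
Tpm1 A_55_P2032192: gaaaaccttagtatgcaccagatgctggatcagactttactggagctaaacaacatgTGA
Tpm1 A_55_P2187043: tcgcccagtgtaaAATAAAcactgtacgct
Tpm1 A_55_P2187053: ttgtatagcttcATTAAAtcctcaataacc

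A_55_P2078680 lies at chr9:66880274-66880333 and A_55_P2032192 at chr9:66871166-66871225 on mm9. The first is assigned to Tpm1.5 and further Tpm1 transcripts, and the second to Tpm1.2 and further ones. They share a run of 10 bases. A_55_P2187043 and A_55_P2187038 share 46 of 60 bases and count as a single measurement of Tpm1.1, and A_55_P2187053 (chr9:66872131-66872190) is assigned to Tpm1.10.

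A_55_P2078680 read 5.99, 5.96, 5.86 and 6.07 in WT and 2.94, 3.76 and 3.26 in AR113Q, with no overlap. This probe was dim: its intensity was 47.4 to 68.5 in WT and 5.74 to 19.6 in AR113Q, and all 4 WT arrays but only 1 of the 3 AR113Q arrays had it well above background. The fitted difference was -2.65 ± 0.21 (adjusted p = 0.00012), and since 2 AR113Q arrays were not well above background and the filter was met through WT, its size is not a measured fold. It was -0.67 with normexp correction, -0.67 on mean spot signals and -0.36 in the values the authors deposited, smaller in size than both Tpm2 probes there, with an adjusted p of at most 0.0043 in each. Each estimate came from the same dim AR113Q spots, so its adjusted p is no separate support for a direction. The probe passed in 18 of 19 other settings with a test (adjusted p from 8.3e-05 to 0.051). These settings kept it through its WT values and used the same dim AR113Q spots, so the count is no separate support either. The filter on probes well above background on every array left it out.

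A_55_P2032192 read 9.26, 8.96, 9.17 and 9.10 in WT and 8.18, 7.74 and 8.51 in AR113Q, again with no overlap. Its level was 0.98 ± 0.20 lower on the log2 scale in AR113Q (1.97-fold, adjusted p = 0.0059), just under the fold threshold of a DEG. It passed in the same direction without any single array, with estimates from -1.16 to -0.78, and in 19 of 20 other settings with a test. For the muscle transcript, A_55_P2187038 read 17.25, 17.54, 17.25 and 17.30 in WT and 17.07, 17.52 and 17.36 in AR113Q, a difference of -0.018 ± 0.17 (95% interval -0.41 to 0.37, adjusted p = 0.940). Its overlapping partner A_55_P2187043 read 16.30, 16.20, 16.06 and 16.27 against 15.96, 15.83 and 15.92, a difference of -0.30 ± 0.14 without overlap of the groups (adjusted p = 0.116). A_55_P2187053 read 7.90, 7.82, 7.46 and 7.31 in WT and 7.09, 7.33 and 7.64 in AR113Q, with a difference of -0.27 ± 0.21 (adjusted p = 0.335). Under 75th percentile scaling the Tpm1.1 probes passed as lower, at -0.63 (adjusted p = 0.036) and -0.60 (adjusted p = 0.016), and A_55_P2187043 passed in 4 of 20 settings in all (adjusted p from 0.015 to 0.563), always below 0.

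Tpm2, the beta tropomyosin of skeletal and smooth muscle, was lower in AR113Q by both of its probes. They share no run above 7 bases and lie apart in the transcript, at chr4:43531276-43531335 and chr4:43532262-43532321 on mm9, the first assigned to the skeletal transcript Tpm2.2 and others and the second to Tpm2.3 and others. Both hold an open reading frame:
Tpm2 A_52_P315976: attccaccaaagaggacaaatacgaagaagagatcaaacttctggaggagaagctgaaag
Tpm2 A_55_P2121408: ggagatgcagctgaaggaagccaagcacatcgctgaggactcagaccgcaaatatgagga

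A_52_P315976 read 14.38, 14.56, 13.65 and 14.04 in WT and 12.07, 12.18 and 13.79 in AR113Q. A_55_P2121408 read 15.93, 16.15, 15.56 and 15.86 in WT and 13.77, 14.02 and 15.60 in AR113Q. In both probes AR113Q 1 and AR113Q 2 lay below every WT array and AR113Q 3 lay within the WT range, just above WT 3, so the genotypes overlapped. The differences were -1.48 ± 0.43 (2.79-fold lower, 95% interval -2.46 to -0.50, adjusted p = 0.023) and -1.41 ± 0.41 (2.66-fold lower, 95% interval -2.35 to -0.47, adjusted p = 0.024). Both kept their direction without any single array, from -2.03 to -1.18 and from -1.98 to -1.07. Neither passed without WT 1, WT 2, AR113Q 1 or AR113Q 2, the adjusted p then lying between 0.053 and 0.087 (0.0016 to 0.087 and 0.00078 to 0.085 over all settings), nor did they pass without the filter on dim probes, with slide as a fixed effect or with the replicate block. On the slide that held both genotypes AR113Q 1 was 2.49 and 2.38 log2 units below WT 2.

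**Figure D5:**
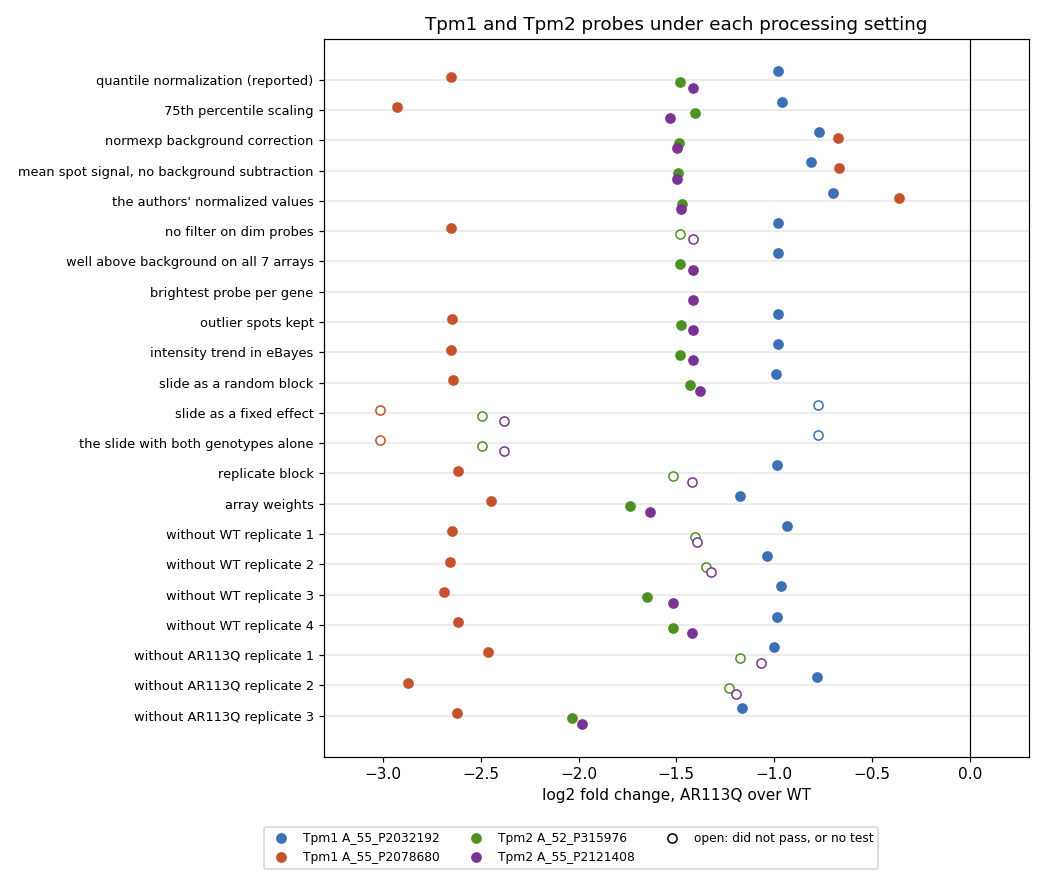
Log2 fold change of AR113Q over WT (x axis) for 2 Tpm1 and 2 Tpm2 probes under each processing setting (y axis), filled where the adjusted p was at most 0.05 and open where it was not or where no test could be made. Every point lies below 0; A_55_P2078680 moves from -2.65 to between -0.67 and -0.36 with normexp, on mean spot signals and in the authors' values, and the Tpm2 points are open where WT 1, WT 2, AR113Q 1 or AR113Q 2 is left out, without the filter on dim probes, with the replicate block, with slide as a fixed effect and on the slide with both genotypes alone.

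Markers of smooth muscle, a tissue of the vessel walls that also uses Tpm1 and Tpm2, were counted as well, without a comparison array by array. Of its 7 markers 6 were tested and 4 passed, all lower in AR113Q (3 under 75th percentile scaling and in the authors' values), with a median of -0.71, beside 43.5% of all genes passing, 21.0% higher and 22.5% lower, and their summed level ran from 14.98 to 15.14 in WT and from 13.73 to 14.42 in AR113Q. The cytoskeletal regulator Smtn fell by 1.61 and the light chain Myl9 fell by 1.21 on the log2 scale, whereas Myh11, the smooth muscle myosin heavy chain, was at 0.25 ± 0.22 and did not pass; these 3 were named after their values were seen. Of 6 fibroblast markers 4 passed, also lower (1 more passed as higher with normexp, on mean spot signals and in the authors' values), with summed levels from 16.66 to 16.95 in WT and from 16.20 to 16.69 in AR113Q. Of 4 adipocyte markers 3 passed lower (2 under 75th percentile scaling, and 2 of 3 tested in the authors' values), of 5 macrophage markers 1 higher (not tested in the authors' values) and 2 lower, of 4 Schwann cell markers 1 higher (not with 75th percentile scaling, normexp, mean spot signals or the authors' values) and 2 lower, of 5 endothelial markers 1 higher, and of 7 skeletal muscle markers 1 lower (4 under 75th percentile scaling), whereas the 2 cardiac markers and the 1 satellite cell marker tested did not pass. The part of these cells in the Tpm1 and Tpm2 results was not tested.

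Tnnt2, the cardiac troponin T that is also made in developing skeletal muscle, had the highest estimate among the troponins after quantile normalization, and it did not pass. Its probe, with no position on mm9 in the files, was the following:
Tnnt2 A_51_P338262: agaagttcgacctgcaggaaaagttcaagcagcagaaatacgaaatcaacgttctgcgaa

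It read 6.01, 7.55, 6.29 and 5.80 in WT and 7.13, 6.88 and 7.90 in AR113Q. WT 2 lay inside the AR113Q range and the other WT arrays below it. The difference was 0.89 ± 0.43 (95% interval -0.11 to 1.89, adjusted p = 0.130). It was 0.38 with normexp correction, 0.40 on mean spot signals and 0.27 in the authors' values, none of which passed, and without WT 2 it was 1.27 with an adjusted p of 0.015 (0.015 to 0.452 over all settings). On the slide shared by both genotypes the sign was opposite, at -0.42 for AR113Q 1 against WT 2. Of 10 developmental and denervation genes 8 were tested, 2 passed higher and 2 lower (median 0.26, and -0.099 under 75th percentile scaling), a share close to the 43.5% of all genes that passed. The transcription factor Runx1, induced by denervation, was 5.62 ± 0.30 higher and the acetylcholine receptor subunit Chrna1 1.77 ± 0.22 higher, while the myogenic factor Myod1 fell by 3.98 and the adhesion molecule Ncam1 fell by 0.68 on the log2 scale.

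Among other thin filament genes 15 of 16 were tested, 1 passed higher and 7 lower in AR113Q, and the median log2 fold change was -0.47, beside 21.0% higher and 22.5% lower over all genes. The pointed-end cap Tmod4 fell by 2.38 and the actin nucleator Lmod3 fell by 2.35 on the log2 scale. Lmod2, a dim probe that only 2 of 4 WT arrays and all 3 AR113Q arrays had well above background, was 1.89 ± 0.60 higher with the genotypes overlapping (adjusted p = 0.034), and it did not pass under 75th percentile scaling or on mean spot signals and is not among the probes of the authors' values, and cardiac troponin I, Tnni3, which only 1 of 4 WT and 2 of 3 AR113Q arrays had well above background, was at 0.99 ± 0.38 and did not pass (adjusted p = 0.064).

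Other fast-fiber genes were lower where they passed. Of 11 tested 6 passed, all lower in AR113Q, beside 22.5% of all genes lower, with a median of -0.60, and under 75th percentile scaling 9 passed, all lower, while the fast troponins did not pass after quantile normalization. The calcium buffer Casq1 fell by 3.05 and the fast regulatory light chain Mylpf fell by 1.37 on the log2 scale, and Myh1 was at 0.31 ± 0.53 and Pvalb at -0.13 ± 0.16, neither of which passed. Of 12 tested regulators of fiber type 1 passed higher, Gtf2ird1 (0.995 ± 0.18), a factor that binds the Tnni1 enhancer, and 4 lower, Mef2c among them (fell by 1.11), with a median of -0.26; this share is close to the 43.5% of all genes that passed. Eya4 was at 0.80 ± 0.32 and Sox6 at -0.70 ± 0.28, and neither passed.

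By likeness over the 7 arrays, taken as a description only, the genes closest to Tnni1 were Fam240a (Pearson r = 0.990), the M-band gene Myom3 (0.987) and Ppcs (0.987), out of 13709 candidates. Those closest to Tnni2 were Bex3 (0.984), Taf7l (0.979) and Exosc2 (0.972). For Tnni1 the arrays fall into high and low values, so that these coefficients mainly restate which 3 arrays were high.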

How the data were processed

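Quadriceps RNA of 4 WT and 3 AR113Q mice was labeled with Cy3 and hybridized to 1 Agilent mouse 4x44K array per mouse. Per the file headers and the submitters' processing notes, the authors extracted spot intensities with Agilent Feature Extraction 10.7.3.1; the processed signal used here is a background-subtracted intensity on a linear scale. The authors also deposited a table of normalized log2 values for 18592 probes, 15 of the 19 member probes among them; its scale was found by comparison with the scanner intensities, and it served as an alternative. The study's methods name quantile normalization and limma.

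Each array held 43020 non-control spots for 39429 probes. Outlier spots (94 to 151 per array, flagged by the scanner software as non-uniform or population outliers) were left out, log2 processed signals were brought to 1 distribution by quantile normalization, replicate spots were then averaged by probe, and probes well above background on at least 3 arrays were fitted by limma 3.58.1 (R 4.3.3) without covariates, with Benjamini-Hochberg adjustment over 20991 probes. A value missing after the outlier filter was left out of that probe's fit. Genes outside the members were represented by their kept probe with the highest mean, and symbols of 28330 probes came through RefSeq. Differences are AR113Q minus WT, ± is the standard error, and intervals are 95% confidence intervals. The fit was tested on simulated data with known changes. For 4 slow and fast pairs an exact two-sided permutation test over the arrays was used.

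Named genes were all member probes, the 2 highest and the 2 lowest log2 fold changes of each list other than the cell type markers, with genes added after their values were seen where said, and the 3 genes most like Tnni1 and Tnni2. Lists were thin filament, fast-fiber, slow-fiber, regulator, developmental and denervation genes and markers of 9 cell types. The members and lists were chosen with earlier results of these data known. Replicate numbers were not treated as pairs: deviations of same-numbered arrays correlated at 0.041, -0.015 and 0.16. The last value, of WT 3 and AR113Q 3, was the highest between any WT and any AR113Q array. These correlations cannot exclude a pairing of the samples. The number of arrays limits the precision, and p-values measure only the spread between these mice. Alternatives covered scaling, background correction, filters, gene summaries, slide terms, array weights and leaving out each array.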

Additional observations from a re-analysis of the deposited data

Results flagged for a closer look

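In each of the 19 member probes the 4 WT arrays were examined for an array far from the rest, and 2 probes had one; chance alone gives this in about 1 of 20 groups. For Tnnc2 (A_51_P353232) WT 2 was highest at 17.04, with the other WT arrays between 16.81 and 16.85. For the Tpm1.1 probe A_55_P2187038 WT 2 was also highest, at 17.54, with the others between 17.25 and 17.30. Both probes are among the brightest on the array.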

How the results depend on the processing

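Tpm1 A_55_P2078680 and A_55_P2032192, both Tpm2 probes, Tpm1 A_55_P2187043 and A_55_P2187053 stayed below 0 and Tpm3 A_55_P2090209 above 0 in every setting that kept them. For A_55_P2078680 these settings used the same dim AR113Q spots, so its constant sign is no separate support. Among the members 3 probes were DEGs; the count was 1 without the filter on dim probes, 1 with each gene by its brightest probe, 1 with probes averaged by gene, 0 with slide as a fixed effect, and 1 to 4 when an array was left out (1 without WT 1, AR113Q 1 or AR113Q 2, and 4 without AR113Q 3). Over all probes 5208 were DEGs, beside 2088 with normexp, 2264 on mean spot signals, 1592 in the authors' values, 9199 without a fold threshold, 0 in limma with slide as a fixed effect (7928 at an unadjusted p under 0.05, 4 of them members; 1 residual degree of freedom) and 4454 to 5563 with an array left out. The cause of these changes was not tested.

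The replicate numbers were not treated as pairs in the reported fit, and whether they pair the samples is not known. With the replicate block 1 member probe was a DEG and 5190 probes in all, and 2 member probes passed, Tpm2 not among them. The block turned the signs of Tnnt3 A_51_P345699 (-0.020), Tnnc2 (-0.020), Tnnc1 (-0.63), Tnni1 (-0.030), Tnnt1 A_55_P2088385 (-0.68) and Tpm3 A_55_P2246235 (-0.074).

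Signs of the slow-fiber and bright fast-fiber probes turned in other settings too. With 75th percentile scaling Tnnt3 A_51_P345699 was -0.61, Tnnc2 -0.51, Tnnc1 -0.15 and Tnni2 -0.39, and Tpm3 minus Tpm1 was 0.997 (exact p = 0.0286, the smallest possible). With normexp, mean spot signals and the authors' values in turn, Tnnt3 A_51_P345699 was -0.029, -0.029 and -0.036, Tnnt3 A_55_P2088375 0.057, 0.057 and 0.062, Tnnt1 A_55_P2088385 -0.078, -0.078 and -0.068, and Tnnt1 minus Tnnt3 -0.049, -0.049 and -0.032; Tnnt1 A_55_P2027521 was 0.12 and 0.11 in the first 2 of these. With probes averaged by gene Tnnt1 was -0.049, Tnnt3 -0.047 and their difference -0.0016, while Tpm1 went from -0.018 by its brightest probe to -0.84 (limma adjusted p = 0.0025), an average that holds the dim A_55_P2078680, and Tpm3 minus Tpm1 from 0.28 to 1.35. With outlier spots kept Tnnt3 A_51_P345699 was -0.0099, and with slide as a random block Tnnt1 A_55_P2027521 was 0.0038. With array weights Tnnt3 A_51_P345699 was -0.019, Tnnc2 -0.026, Tnnc1 -0.91, Tnnt1 A_55_P2088385 -0.72, Tpm3 A_55_P2090205 -0.038 and Tpm1 A_55_P2187038 0.079.

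The slide with both genotypes pairs AR113Q 1, low for slow-fiber genes, with WT 2, which is high, and gives the same values as slide as a fixed effect: Tnnt2 -0.42, Tnnt3 A_51_P345699 -0.22, Tnnc1 -3.40, Tnni1 -3.74, Tnni2 -3.0e-05, Tnnt1 A_55_P2088385 -4.48, Tpm3 A_55_P2090205 -2.40 and Tpm3 A_55_P2246235 -2.74. There Tnnc1 minus Tnnc2 was -3.41, Tnni1 minus Tnni2 -3.74, Tnnt1 minus Tnnt3 -4.25 and Tpm3 minus Tpm1 0.50.

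Leaving out the arrays 1 at a time, the estimates ran from -1.72 to 1.06 for Tnnc1, -0.085 to 0.059 for Tnnc2, -0.85 to 1.61 for Tnni1, -1.83 to 1.03 and -1.86 to 0.88 for Tnnt1 A_55_P2088385 and A_55_P2027521, -0.076 to 0.064 for Tnnt3 A_51_P345699, -0.12 to 0.10 for Tpm1 A_55_P2187038, -0.75 to 1.21 and -0.89 to 1.52 for Tpm3 A_55_P2090205 and A_55_P2246235, -1.77 to 1.03 for Tnnc1 minus Tnnc2, -1.14 to 1.32 for Tnni1 minus Tnni2 and -1.75 to 0.96 for Tnnt1 minus Tnnt3. The lowest values for Tnnc1, Tnni1, Tnnt1 and Tpm3.12 were those without AR113Q 3. The 4 probes missing from the filter on all 7 arrays, Tnni1, Tnnt1 A_55_P2027521, Tpm3 A_55_P2246235 and Tpm1 A_55_P2078680, were not well above background on 2 arrays each, which limits their low values. The authors' values lack 4 member probes, so no Tnni1 pair could be formed there.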
